A study of Homo sapiens with 6 samples.

Results

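The genes described here are a list of interferon-stimulated genes, read on bead arrays from SK-Hep1 cells after knockdown of TARDBP. The list held 37 probes, chosen by probe identifier from the 47231 probes of the non-normalized table, with 1 probe per gene. The probe annotation named 36 of the 37, and these names were the 36 genes of the list. The remaining probe has no gene in that annotation and is counted and was tested without passing, but is not described. SK-Hep1 is an adherent human line labelled hepatocellular carcinoma, and TARDBP encodes TDP-43, a nuclear protein that binds RNA and takes part in splicing. Total RNA of 3 samples labelled siTARDBP and 3 samples labelled siLuc, the control, was hybridised to 6 one-colour Illumina HumanHT-12 arrays. Both groups are the same cell line and carry the name of a small interfering RNA. The labels give no dose or time, and no sample without siRNA and no sample treated with interferon is among the 6 arrays. Whether each sample was its own culture is not in the labels, so the p-values cover the spread among these 6 arrays, and that spread may be technical.

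Interferons are secreted when a cell senses viral RNA or DNA. In the cell that receives type I interferon, the receptor IFNAR activates the kinases JAK1 and TYK2, and the transcription complex ISGF3, which contains IRF9, binds a short DNA element in the promoters of its targets. This element, the interferon-stimulated response element (ISRE), is built on repeated GAAA letters. The targets include sensors of double-stranded RNA (RIGI, IFIH1), enzymes and RNA-binding proteins that hinder viral replication (the OAS and IFIT families, MX1, RSAD2), the ubiquitin-like modifier ISG15 with its conjugating enzymes, and the machinery of antigen presentation (TAP1, PSMB9).

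The promoters of the list were searched for the ISRE core, GAAANNGAAA on either strand (TTTCNNTTTC when read from the other), where N is any base and overlapping matches were merged. The window ran from 250 bases before to 50 bases after each annotated start, with sequences from RefSeq on GRCh38.p14. Of the 36 named genes, 30 had a window, and 21 of these 30 (70%) held at least 1 match. Of all 27305 genes with a window, 1195 (4.38%) did. A match is a run of letters and not a shown binding site. These 8 stretches are shown because they hold a match to the ISRE core and belong to members whose values are given further on. Each has 30 bases and is written 5′ to 3′ along the gene's strand, with the match in capitals.
ISG15: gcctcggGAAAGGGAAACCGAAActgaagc
IFIT1: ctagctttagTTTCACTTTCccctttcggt
IFIT3: tttaaattagTTTCACTTTCcagtttcctc
OAS3: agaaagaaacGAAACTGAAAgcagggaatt
HERC5: attacagTTTCCTTTTCCTTTTCgattccg
IFI6: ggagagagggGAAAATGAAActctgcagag
DDX60: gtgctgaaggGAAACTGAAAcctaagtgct
IFITM3: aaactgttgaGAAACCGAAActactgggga
Their places were the ISG15 stretch at chr1:1013377-1013406 on the plus strand, its match beginning 113 bases before an annotated start, the IFIT1 stretch at chr10:89392497-89392526 on the plus strand, its match beginning 116 bases before an annotated start, the IFIT3 stretch at chr10:89327865-89327894 on the plus strand, its match beginning 122 bases before an annotated start, and the OAS3 stretch at chr12:112938321-112938350 on the plus strand, its match beginning 143 bases before an annotated start. The others were the HERC5 stretch at chr4:88456987-88457016 on the plus strand, its match beginning 125 bases before an annotated start, the IFI6 stretch at chr1:27672329-27672358 on the minus strand, its match beginning 156 bases before an annotated start, the DDX60 stretch at chr4:168318821-168318850 on the minus strand, its match beginning 88 bases before an annotated start, and the IFITM3 stretch at chr11:320876-320905 on the minus strand, its match beginning 35 bases before an annotated start. The ISG15 and HERC5 matches are longer than 10 letters because overlapping copies of the core were merged.

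The knockdown was visible on the array. The TARDBP probe had raw intensities of 136, 84.0 and 96.5 units in siTARDBP cells, against 265, 214 and 203 in siLuc cells. Every siTARDBP array lay below every siLuc array, with means of 105 ± 27.1 units in siTARDBP and 227 ± 32.9 in siLuc (SD, n = 3 each), and on 1 of the 3 siTARDBP arrays the probe was at or under background. The difference in normalised log2 level, siTARDBP minus siLuc, was -0.98 with a standard error of 0.11 (limma adjusted p = 1.55e-05). An offset of 16 in place of 50 gave -1.25, so the size of the drop depends on the offset at this low signal. The labelled cell type was checked with marker genes. No endothelial marker gene of 5 was above background on any array. Of 7 hepatocyte genes, 4 (APOA1, APOB, TF and TTR) were above it on no array and AFP on 2 siLuc arrays, while SERPINA1 and 1 of the 2 ALB probes were tested. The mesenchymal filament gene VIM was bright on all 6 arrays, at 15060.0 units or more on both probes. Of the other 4 mesenchymal genes, THY1 was above background on all 6 arrays, COL1A1 on 2, COL1A2 on at most 1 per probe and FN1 on none. Of 3 blood cell genes, PTPRC and CD3E were above background on no array, and 1 of 2 CD14 probes was above it on all 6. No marker probe passed the test.

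Background was judged array by array. The mode of the dim peak lay between 59.1 and 75.9 units, and the background level, under which 95% of a symmetric background would lie, between 81.7 and 128 units. The arrays numbered 2 had the lowest levels in both groups, 82.1 for siTARDBP and 81.7 for siLuc. Their median raw intensities were also the lowest, 64.4 for siTARDBP and 64.7 for siLuc, and groups are compared on normalised values. Of the 37 list probes, 27, 26 and 22 exceeded the level on siTARDBP arrays 1, 2 and 3, and 24, 27 and 22 on siLuc arrays 1, 2 and 3. On all 6 arrays 21 probes were above it, 5 on between 3 and 5 arrays, 1 on 2 arrays and 10 on none. The 26 probes above it on at least 3 arrays were tested (70.3%, against 32.2% of all probes). None of these 26 was at or under background on all 3 arrays of either group.

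**Figure D1:**
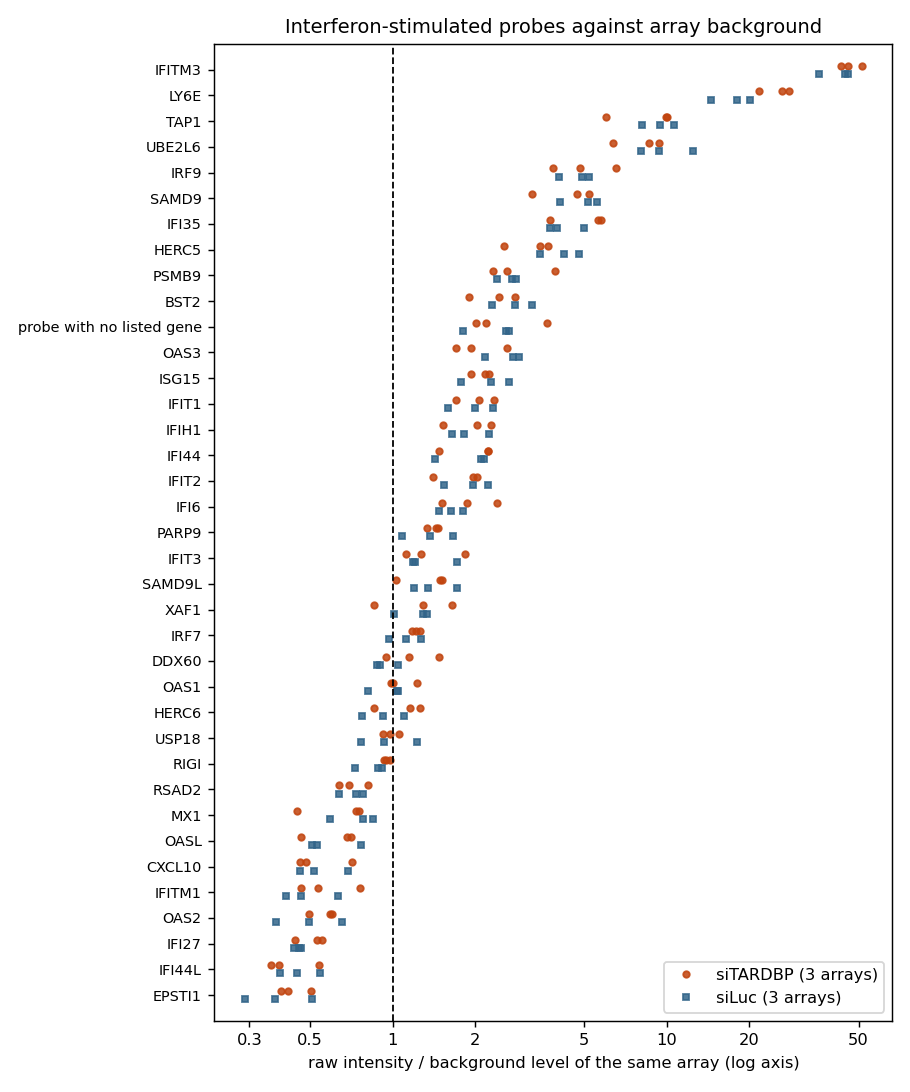
Raw intensity of the 37 list probes divided by the background level of the same array (log axis), with 1 point per array for siTARDBP (circles, 3 arrays) and siLuc (squares, 3 arrays). Rows are ordered by probe brightness, which does not rank transcripts between genes. The dashed line marks the background level. IFITM3 and LY6E lie farthest above it, and 10 probes lie at or below it on every array.

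The 10 probes above background on no array included several of the classic markers of an interferon response. They were MX1, a dynamin-like GTPase that blocks viruses, RSAD2 (viperin), the chemokine CXCL10, the sensor RIGI, OAS2, OASL, IFI44L, IFI27, IFITM1 and EPSTI1. Their raw intensities lay between 33.6 and 112 units over all 6 arrays. MX1 had 82.1, 62.0 and 53.0 units in siTARDBP cells, against 98.1, 63.5 and 75.9 in siLuc cells. RIGI, the probe of this group closest to background, had 104, 80.4 and 112 units in siTARDBP cells, against 102, 74.7 and 93.1 in siLuc cells. CXCL10 had 54.0, 58.2 and 54.1 units in siTARDBP cells, against 53.0, 55.8 and 65.9 in siLuc cells. None of the 10 exceeded its array's background level in any sample of either group, so only that level can be given, as an upper bound. USP18, the protease that removes ISG15 from its targets and limits receptor signalling, was above background on 1 array of each group and was not tested. It had 118, 80.2 and 109 units in siTARDBP cells, against 108, 100.4 and 97.8 in siLuc cells.

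Of the 26 tested list probes, 1 had an adjusted p under 0.05 by limma. It was LY6E (probe ILMN_1695404), which was higher in siTARDBP, and 0 were lower. That is 3.85% of the tested list. Over all 15201 tested probes 11.2% passed, 5.84% as higher and 5.32% as lower. Of all calls 52.4% were higher, but 27.8% when arrays were scaled to 1 median over all probes, a setting under which LY6E was still the 1 list probe to pass. Without adjustment, 7 of the 26 had a p under 0.05 (26.9%, against 25.4% of all tested probes). On normalised values the siTARDBP and siLuc arrays did not overlap for 6 list probes (23.1%, against 29.4% of all tested probes), 4 higher and 2 lower. The median log2 difference was 0.082 over the list and -0.0039 over all tested probes. Of the list values, 17 were above 0 and 9 below, against 7467 above and 7734 below over all tested probes. The 95% interval of the log2 difference lay within a 1.5-fold change either way for all 25 tested list probes other than LY6E. Over all 15201 tested probes, 13850 had such an interval. These intervals hold on the normalised scale, on which the offset of 50 added in background correction makes the changes of dim probes smaller.

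**Figure D2:**
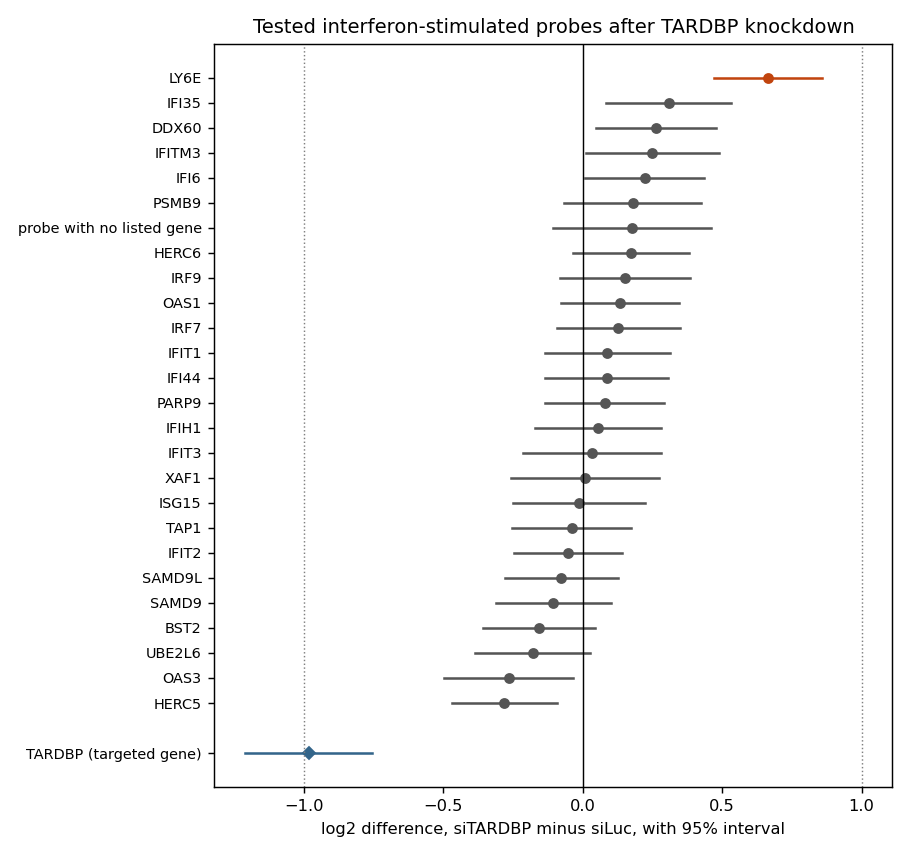
Difference in normalised log2 level, siTARDBP minus siLuc, for the 26 tested list probes and for TARDBP (diamond), with 95% intervals from limma over 3 arrays per group. Dotted lines mark a 2-fold change. LY6E at 0.66 passed the threshold, and the other 25 lay between -0.28 and 0.31.

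LY6E, a GPI-anchored membrane protein of the lymphocyte antigen 6 family known to affect the entry of several viruses, stood apart from the rest of the list. Its raw intensities were 2939, 2292 and 2561 units in siTARDBP cells, against 2086, 1635 and 1848 in siLuc cells. Every siTARDBP array exceeded every siLuc array, and the raw means were 2597 ± 325 units in siTARDBP and 1856 ± 225 in siLuc (SD, n = 3 each). On the normalised log2 scale the difference was 0.66 (standard error 0.091), with a 95% interval of 0.47 to 0.86 (limma adjusted p = 0.00014, 1.59-fold higher). The difference was 0.63 between the arrays numbered 2, which had the lower background, and 0.68 among the other 4 arrays. No other probe of LY6E is listed in the annotation, so the rise rests on 1 probe. In RNA from whole cultures, more cells with the transcript and more transcript per cell cannot be told apart.

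The other membrane proteins of the list did not pass. IFITM3, which hinders the fusion of virus with endosomal membranes (probe ILMN_1805750), had 5747, 3749 and 5090.4 units in siTARDBP cells, against 5308, 3645 and 4615 in siLuc cells. The groups overlapped on normalised values, with a log2 difference of 0.25 (95% interval 0.012 to 0.49, limma adjusted p = 0.174). Without siTARDBP replicate 2 its limma adjusted p was 0.0476, with a difference of 0.36. It passed in that 1 of 21 alternatives, over which the difference ran from 0.13 to 0.36 and the limma adjusted p reached 0.701. The IFITM genes are close relatives, and whether this probe separates IFITM3 from IFITM2 was not tested. BST2 (tetherin), which holds budding virus at the cell surface, had 274, 230.0 and 224 units in siTARDBP cells, against 324, 262 and 295 in siLuc cells. Its normalised siTARDBP values all lay below the siLuc values, but the log2 difference of -0.16 did not pass (limma adjusted p = 0.326).

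In the IFIT family, whose proteins bind viral RNA and hinder its translation, the list held 3 probes. All 3 were above background on all 6 arrays, and none passed. IFIT1 had 262, 169 and 201 units in siTARDBP cells, against 269, 163 and 204 in siLuc cells. IFIT2 had 227, 161 and 165 units in siTARDBP cells, against 227, 182 and 197 in siLuc cells, and IFIT3 had 206, 104 and 133 units in siTARDBP cells, against 140.0, 139.6 and 152 in siLuc cells. All 3 list probes had overlapping groups. Their log2 differences were 0.088 for IFIT1 (95% interval -0.14 to 0.31), -0.053 for IFIT2 (-0.25 to 0.14) and 0.033 for IFIT3 (-0.21 to 0.28). Among the siTARDBP arrays, the IFIT3 list probe was highest in replicate 1 and lowest in replicate 2. Of the other tested IFIT3 probes, ILMN_1664543, above background on 3 arrays, differed by 0.13 with groups apart. ILMN_2239754 differed by -0.079 with overlapping groups, and neither passed.

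ISG15 and its conjugation system gave the member closest to the threshold on the lower side. ISG15 itself, a ubiquitin-like protein attached to other proteins, had 242, 185 and 229 units in siTARDBP cells, against 309, 187 and 227 in siLuc cells. Its log2 difference was -0.013 (95% interval -0.25 to 0.22). HERC5, the ligase that attaches ISG15 to newly made proteins (probe ILMN_1729749), had 412, 284 and 299.7 units in siTARDBP cells, against 487, 389.7 and 442 in siLuc cells. On normalised values all 3 siTARDBP arrays lay below all 3 siLuc arrays, although raw values overlapped, with a log2 difference of -0.28 and a standard error of 0.089, but the limma adjusted p of 0.0521 missed the threshold. It was 0.0417 with array weights and 0.0453 when only probes above background on all 6 arrays were tested. HERC5 passed in those 2 of 21 alternatives, and its limma adjusted p reached 0.184 in the others. UBE2L6, the conjugating enzyme for ISG15, had 964, 768 and 754 units in siTARDBP cells, against 1086, 1016 and 1029.7 in siLuc cells. Its difference of -0.18 did not pass (limma adjusted p = 0.264), and a second, dimmer UBE2L6 probe differed by 0.092. HERC6, a relative of HERC5, was close to background and differed by 0.17 (limma adjusted p = 0.288).

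Of the oligoadenylate synthetases, which make the messenger that activates RNase L, OAS3 and OAS1 were tested. OAS3 had 292, 158 and 200.5 units in siTARDBP cells, against 334, 225 and 278 in siLuc cells. Its groups overlapped on normalised values, and its log2 difference of -0.27 (95% interval -0.50 to -0.035) did not pass after adjustment (limma adjusted p = 0.134). OAS1, above background on 4 arrays, had 112, 100.2 and 116 units in siTARDBP cells, against 121, 85.5 and 104 in siLuc cells and differed by 0.13 (limma adjusted p = 0.44).

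The 4 tested sensors and transcription factors of the list had differences above 0 that did not pass. DDX60, a helicase linked to RIG-I signalling, had 165, 94.5 and 112 units in siTARDBP cells, against 104, 85.4 and 112 in siLuc cells. Of the 6 arrays, 3 were above background, 2 of siTARDBP and 1 of siLuc. It thus reached the test mostly through the group in which it was higher. Its normalised groups did not overlap, with a log2 difference of 0.26 (95% interval 0.048 to 0.48, limma adjusted p = 0.112). The difference was 0.31 in the arrays numbered 1 and 3 and 0.17 in those numbered 2. The limma adjusted p of DDX60 was 0.035 (difference 0.35) once the tested probes' medians, not quantiles, were equalised. DDX60 passed in that 1 of 20 alternatives, over which its difference ran from 0.16 to 0.36 and its limma adjusted p reached 0.396. IFIH1 (MDA5), a sensor of long double-stranded RNA, had 227, 188 and 181 units in siTARDBP cells, against 190.2, 183 and 234 in siLuc cells. It differed by 0.055, with overlapping groups. IRF9, the DNA-binding part of ISGF3, had 727, 395 and 454 units in siTARDBP cells, against 605, 399 and 519 in siLuc cells, and IRF7, which drives interferon genes, had 141, 96.5 and 144 units in siTARDBP cells, against 129, 103 and 124 in siLuc cells. IRF9 differed by 0.15 (limma adjusted p = 0.425) and IRF7 by 0.13 (limma adjusted p = 0.485).

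The list's antigen presentation genes also overlapped between groups. TAP1, a subunit of the peptide transporter that loads MHC class I, had 1122, 816 and 705 units in siTARDBP cells, against 1096, 863 and 1038 in siLuc cells, with a log2 difference of -0.040 (95% interval -0.25 to 0.17). PSMB9, a subunit of the immunoproteasome, had 436, 215 and 274 units in siTARDBP cells, against 315, 231 and 308 in siLuc cells, with a difference of 0.18 (-0.066 to 0.43).

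Among the remaining effectors, IFI35 had the largest difference after LY6E. IFI35, an interferon-induced leucine zipper protein (probe ILMN_1745374), had 627, 471 and 443 units in siTARDBP cells, against 433, 407 and 507 in siLuc cells. On normalised values all siTARDBP arrays lay above all siLuc arrays, with a log2 difference of 0.31 and a standard error of 0.11 (limma adjusted p = 0.0721). Without siLuc replicate 3, the highest of the siLuc arrays for this gene, the difference was 0.39 with a limma adjusted p of 0.0431. IFI35 passed in that 1 of 21 alternatives, over which its difference ran from 0.20 to 0.39 and its limma adjusted p reached 0.478. SAMD9, an antiviral factor against poxviruses, had 528, 425 and 381 units in siTARDBP cells, against 599, 454 and 521 in siLuc cells and differed by -0.11 (limma adjusted p = 0.542), and its neighbour and paralogue SAMD9L differed by -0.077. IFI44 differed by 0.085, PARP9 by 0.079 and XAF1, which antagonises the apoptosis inhibitor XIAP, by 0.0069, all with overlapping groups. A second tested probe differed by -0.11 for PARP9 and by -0.13 for XAF1, and neither passed.

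IFI6, a small interferon-induced membrane protein, also gave different values on different probes. The list probe had 268, 153 and 179 units in siTARDBP cells, against 189.6, 147 and 189 in siLuc cells, with groups apart on normalised values and a log2 difference of 0.22 (limma adjusted p = 0.177). The second, brighter IFI6 probe had 763, 545 and 528 units in siTARDBP cells, against 755, 565 and 744 in siLuc cells, and its log2 difference was -0.024. Over the list, 13 genes had 20 other probes, of which 8, from 7 genes, were tested. None of the 8 passed, none had an unadjusted p under 0.05, and their log2 differences lay between -0.13 and 0.13. Over all tested probes, 11.2% passed and 25.4% had an unadjusted p under 0.05. OAS2, whose list probe was dim, had 1 other probe above background on 4 arrays, which differed by -0.060.

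**Figure D3:**
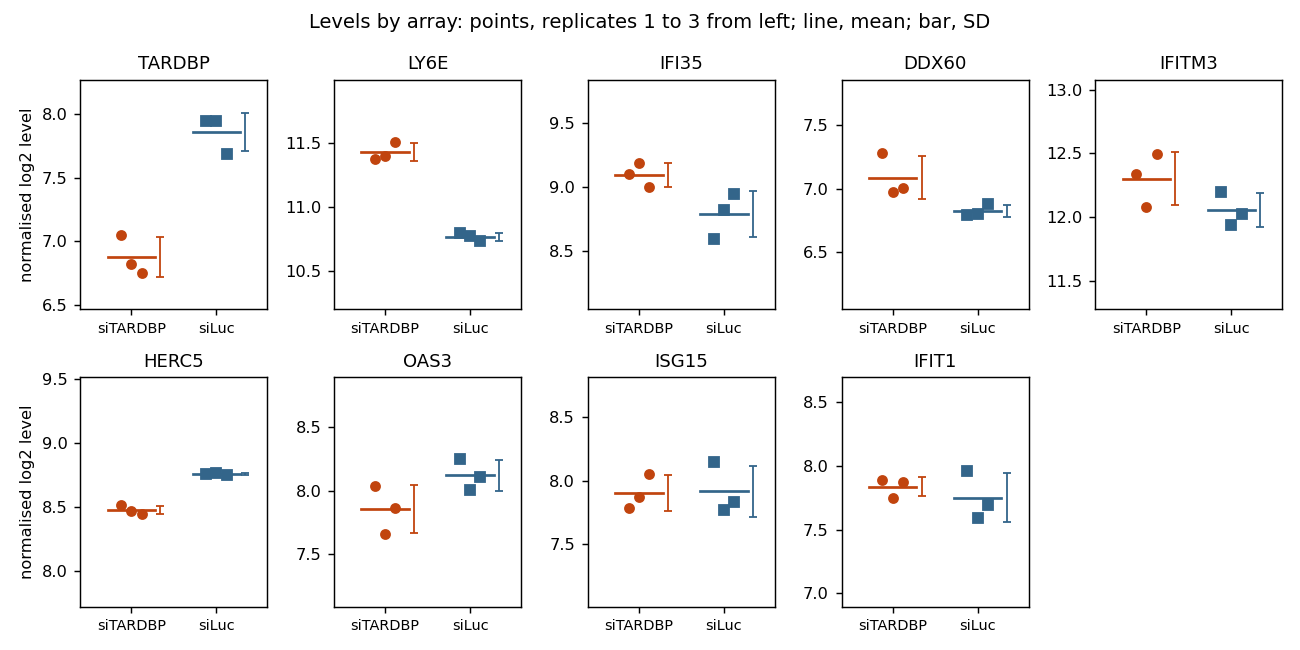
Normalised log2 level on each array for TARDBP and 8 list genes, with siTARDBP left of siLuc, points for replicates 1 to 3, a line for the mean and a bar for the SD. Every panel spans the same log2 range. The groups are separate for TARDBP, LY6E, IFI35, DDX60 and HERC5 and overlap for IFITM3, OAS3, ISG15 and IFIT1.

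The members with and without an ISRE match were set side by side. Of the tested members, 14 had a match, 8 had a window without one and 3 (LY6E, IRF7 and IFIT2) had no window in the table. The median log2 difference was 0.044 with a match, between -0.28 for HERC5 and 0.26 for DDX60. It was 0.14 without, between -0.18 for UBE2L6 and 0.31 for IFI35. LY6E, the only member past the threshold, had no window, so neither set could hold a call. The genes whose sequences are printed fall on both sides of 0. The HERC5 and OAS3 stretches belong to the 2 lowest values of the list, and the DDX60 and IFITM3 stretches to the highest of the genes with a match.

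**Figure D4:**
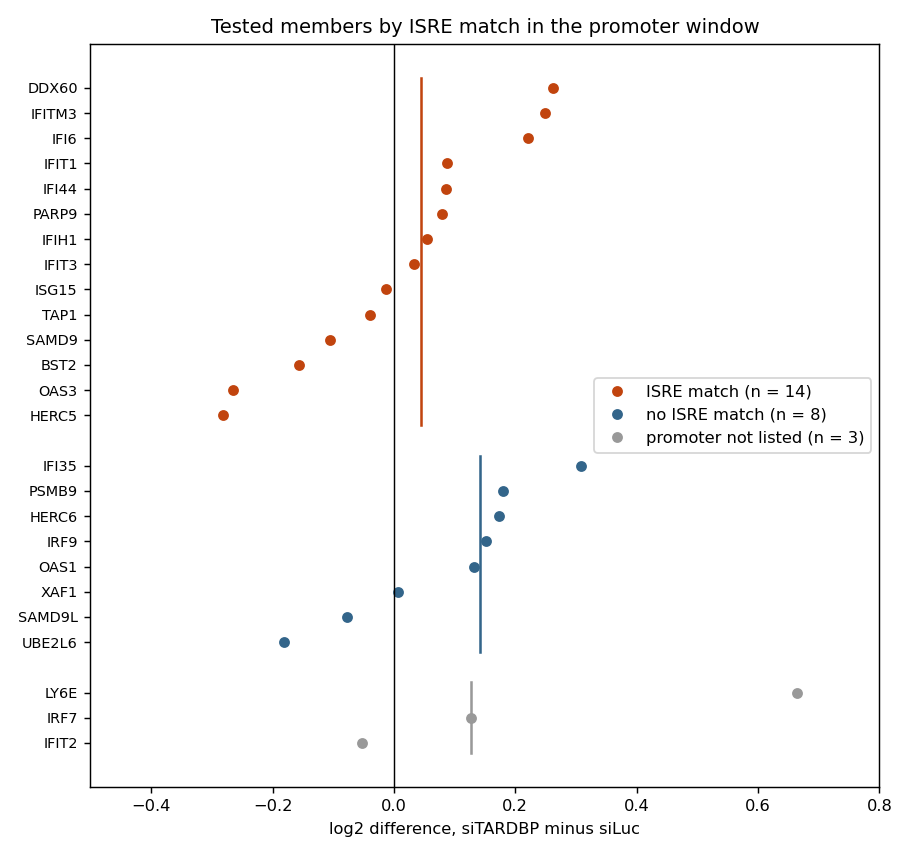
Log2 difference, siTARDBP minus siLuc, of the 25 tested named members, grouped by whether the promoter window held an ISRE match, with 1 point per gene and a vertical line at each group's median. Values on both sides of 0 occur with and without a match, and LY6E has no window in the table.

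Other genes of the interferon pathway were read from a second list of 70, of which 66 had a named probe, 49 were tested on 68 probes, and 4 are not analysed here. Of these 68 probes, 5 were higher and 1 was lower at an adjusted p of 0.05 (8.82%, against 11.2% of all tested probes), and the median log2 difference was 0.037. The interferon genes on this list, IFNB1, IFNG and IFNL1, were above background on no array, at 74.6 units or less on all 4 of their probes. Other interferon genes were not examined. The kinase JAK2, which acts downstream of the interferon gamma receptor and many cytokine receptors, was higher. It had 199, 131 and 143 units in siTARDBP cells, against 123, 97.4 and 92.8 in siLuc cells, with a log2 difference of 0.58 (limma adjusted p = 0.00198). IRF2, a repressor of interferon-responsive promoters, was higher on 1 of its 2 probes. That probe had 201, 139 and 161 units in siTARDBP cells, against 127, 85.5 and 129.9 in siLuc cells, with a log2 difference of 0.55 (limma adjusted p = 0.00143), and the other differed by 0.068.

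The 17 tested probes of the antigen presentation part of this list came from 10 genes, and 3 were higher and 0 lower. Among all tested probes 5.84% were higher and 5.32% lower. In the largest part of this list, the other effectors, 0 of 29 tested probes were higher and 1 was lower. TAPBP (tapasin), which bridges the peptide transporter and MHC class I, had 1833, 1197 and 1547 units in siTARDBP cells, against 1392, 1104 and 1096 in siLuc cells on its brightest probe. The log2 difference was 0.51 (limma adjusted p = 0.00386), but 0.36 with a limma adjusted p of 0.129 under median scaling over all probes. The other 2 TAPBP probes did not pass, at 0.30 and 0.060. TAP2, the partner of TAP1, was higher on its dimmer probe by 0.33 (limma adjusted p = 0.0421). That probe was above background on 3 siTARDBP arrays but on 1 siLuc array, so it was tested through the group in which it was higher. The brighter TAP2 probe, above background on all 6 arrays, differed by 0.12 (limma adjusted p = 0.504). HLA-F was higher by 0.31 on 1 of 2 probes (limma adjusted p = 0.0496), and the other differed by 0.12. SP100, a component of PML nuclear bodies, was the lower gene, at -0.34 on 1 of its probes (limma adjusted p = 0.0368), and a second SP100 probe was at -0.25 without passing. The HLA-F call was lost in 17 of 21 alternatives, the TAP2 call in 12 of 20 and the SP100 call in 10 of 21, each on leaving out any of 5 of the 6 single arrays. JAK2 and IRF2 passed in every alternative that tested them. Both probes were dim, and JAK2 was above background on 2 of the 3 siLuc arrays. With an offset of 16 the differences were 0.78 for JAK2 and 0.72 for this IRF2 probe, so their size depends on the offset. The receptors IFNAR1 and IFNAR2, the kinase EIF2AK2 (PKR), the DNA sensor CGAS, its adaptor STING1 and the RNA-sensing adaptor MAVS did not pass on any probe.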

How the data were processed

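Total RNA of SK-Hep1 cells was read on 6 arrays, 3 siTARDBP and 3 siLuc. The deposited non-normalized table holds 1 linear intensity per probe and array, which per the submitters' processing notes came from BeadStudio. No source used here gives its version or says whether background was subtracted. The authors' value table, in which every column has a median of 6.121, holds log2 values whose columns correlated best with the intensity column of the same array, and it served as an alternative. Intensities were corrected with normexp (offset 50), quantile normalised and put on a log2 scale in limma 3.58.1 under R 4.3.3. A probe was tested if it exceeded the array's background level on at least 3 arrays. The level was set by mirroring the dim side of the intensity peak around its mode. limma's moderated test was two-sided, with Benjamini-Hochberg adjustment over all 15201 tested probes, and was tested on simulated data. Gene names came from the platform annotation, in which 30113 probes have 1 symbol, 8 several and 17110 none listed. The number of arrays limits the precision. Every tested named member is given with its difference, and of the other pathway genes those past the threshold, with a few others chosen after their values were seen. Members and lists were chosen with earlier results of these data known. Replicate numbers were not treated as pairs, since the labels do not say that a number marks a shared batch. The deviations of same-numbered arrays correlated at 0.106, 0.104 and -0.0019, and those of differently numbered arrays at -0.161 to 0.0639. Alternatives covered background correction, normalization, filter, test settings, blocks and arrays left out.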

Additional observations from a re-analysis of the deposited data

How the results depend on the processing

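LY6E stayed past the threshold, higher in siTARDBP, in all 21 alternatives, between 0.51 and 0.69 on the log2 scale. Over the list, 2 probes were higher with median scaling over the tested probes (DDX60 besides LY6E). HERC5 made 1 lower with array weights and with probes above background on all 6 arrays. Leaving out single arrays gave 1 to 2 higher and 0 lower, the added gene being IFITM3 without siTARDBP replicate 2 and IFI35 without siLuc replicate 3. Of the other pathway probes, 2 were higher with median scaling over all probes. There were 3 without a filter, with probes above background on all 6 or on at least 1 array, in the 4 arrays numbered 1 and 3, and at an adjusted p of 0.01. The lower count was 0 with an offset of 16, without a filter, with the replicate block, in the 4 arrays and at 0.01. Leaving out single arrays gave 3 to 7 higher and 0 to 1 lower, with a list median of 0.049 to 0.12 and a TARDBP difference of -1.08 to -0.93. The cause of these changes was not tested. The replicate block left 1 list probe higher and 0 lower, and 5 pathway probes higher. Of all tested probes, 1696 passed, against 1016 with median scaling over all probes, 848 in the 4 arrays, 764 at 0.01 and 960.0 to 1785 with single arrays left out. Of 547 recomputed list values, 542 kept direction and side of the threshold or changed sign without passing, and 5 passed newly. Signs changed for 24 values of 9 members, none past a threshold. Slide was not run as a block because the sources used here do not give it.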
